A study of Mus musculus with 14 samples.

Results

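The genes described here are 35 genes that mark the endothelial cells of the liver, out of 54446 genes in the deposited table. They were taken by symbol, 1 line per gene identifier, as known markers of the cell type. No rule on their measured change was used, but earlier results of these data were known when the 35 genes were chosen. Of these, 12 mark the sinusoidal endothelium and 16 are general endothelial genes found in most vessels. Another 4 are angiocrine ligands (signals that endothelial cells send to hepatocytes). The other 3 mark large vessels or endothelium with a continuous lining. They are called large-vessel genes here, although Cd34 and Plvap are not confined to large vessels.

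The livers of 14 C57BL/6 mice aged 5 weeks were flash-frozen and their total RNA sequenced. The 8 knockout mice carried floxed Mettl3 alleles and Alb-Cre, and the 6 control mice carried the floxed alleles without Cre. Mettl3 encodes the catalytic subunit of the enzyme complex that places N6-methyladenosine on mRNA. Alb-Cre is a recombinase driven by the albumin promoter, which is active in hepatocytes and in the fetal cells from which hepatocytes and bile duct cells arise, so endothelial cells are not its target. The RNA came from whole liver, in which hepatocytes supply most of the RNA.

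Liver sinusoidal endothelial cells line the capillaries between plates of hepatocytes. They lack a basement membrane, are pierced by open pores called fenestrae, and clear macromolecules from the blood with scavenger and lectin receptors such as Stab1, Stab2, Mrc1, Fcgr2b and Clec4g. Around the central vein they and the vein's own endothelium make Wnt2, Wnt9b and Rspo3, which set the pericentral programme of hepatocytes, and they make Bmp2, which drives hepcidin in hepatocytes. Hepatocytes in turn make Vegfa, the ligand of the endothelial receptors Kdr and Flt1.

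The level of a gene in a library is given as its normalised estimated count, called its value. Changes are log2, knockout minus control, on log2(value + 1), from limma fitted over the 23554 genes that reached a value of 10 in 6 or more libraries. A gene was called at a Benjamini-Hochberg adjusted p of at most 0.05 over all genes tested. Libraries held 11.1 M to 33.8 M estimated reads (M, megareads). By Xist and 4 Y-linked genes, replicates 1 to 4 of both groups were Y-positive, at 24.3 M to 33.8 M reads, and the other 4 knockout and 2 control libraries were Xist-high, at 11.1 M to 19.2 M reads. The labels gave no sex. Knockout libraries 3, 6 and 7 stood apart from the other knockouts in an earlier analysis of the same values, and here the hepatocyte genes were lowest in them. Results are therefore also given without these libraries. Mettl3 itself had values of 76.9 to 122 in the 8 knockouts, against 199 to 263 in the 6 controls, with no overlap, and its change was -1.17 (SE 0.12, adjusted p = 1.32e-05).

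All 35 endothelial genes passed the filter on low values, with values from 36.2 to 2234 in single libraries. In knockout livers 9 of the 35 were lower and 0 were higher, while over all genes tested 11.0% were called lower and 11.5% higher. At an unadjusted p under 0.05, 16 of the 35 were lower, against 16.3% of all genes tested, and 1 was higher, against 18.7%. The change was below 0 for 32 of the 35 genes, which is 91.4%, against 45.3% of all genes tested. The median change was -0.29 over the endothelial genes and 0.05 over all genes tested. These calls and signs hold for the scaling of the deposited values, and with libraries scaled to equal sums outside ribosomal RNA 0 of the 35 were lower. In whole liver, fewer endothelial cells and less RNA per endothelial cell cannot be told apart.

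**Figure D1:**
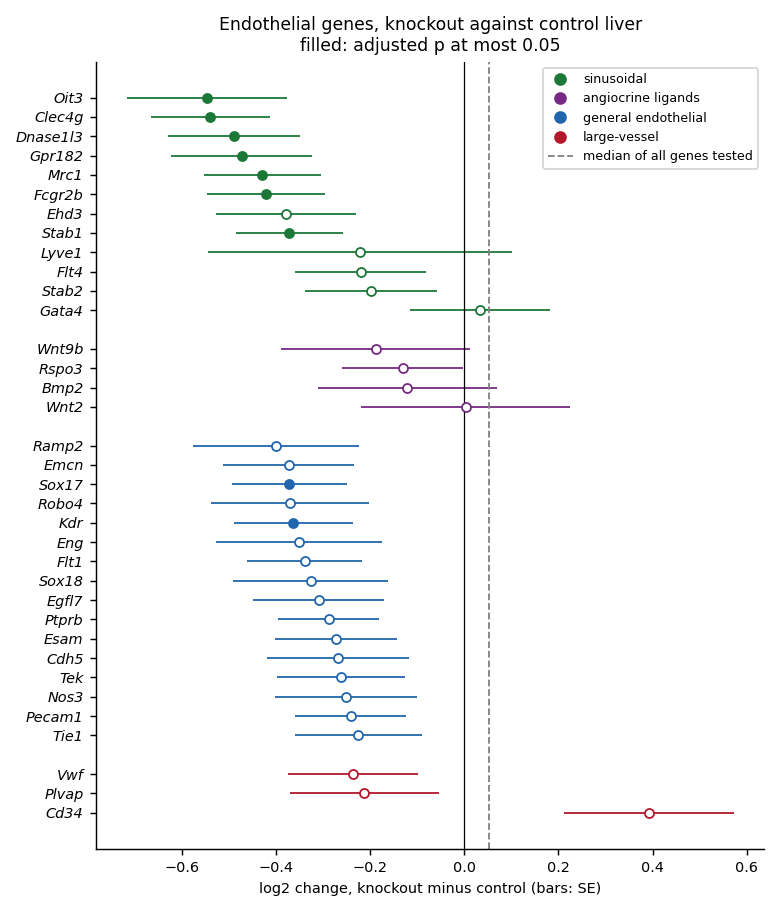
Log2 change (x axis, knockout minus control, bars are SE) of each of the 35 endothelial genes, grouped as sinusoidal, angiocrine, general and large-vessel genes, with filled points where the adjusted p was at most 0.05 and a dashed line at the median of all genes tested. All 9 filled points lie between -0.55 and -0.36, and Cd34, Gata4 and Wnt2 are the points above 0. With libraries scaled to equal sums none of the 9 was called.

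The 9 genes that were lower held 68.4% to 77.7% of their control level. They were the sinusoidal genes Clec4g, Dnase1l3, Mrc1, Fcgr2b, Stab1, Oit3 and Gpr182 and the general endothelial genes Sox17 and Kdr. RefSeq promoters (250 bases before to 50 bases after the start, GRCm38.p6) were at hand for 18 of the 35 genes, 5 of them among these 9, and Egfl7 had 3 promoters, which makes 20 in all. They are shown because these genes moved together, each 5′ to 3′ on the gene's strand, with the letters AGGAA or their reverse complement TTCCT in capitals. AGGAA contains GGAA, the core that transcription factors of the ETS family, among them the endothelial regulators Erg and Fli1, bind. A GGAA with another base before it was neither marked nor counted.
Clec4g, chr8:3720602-3720901, minus strand: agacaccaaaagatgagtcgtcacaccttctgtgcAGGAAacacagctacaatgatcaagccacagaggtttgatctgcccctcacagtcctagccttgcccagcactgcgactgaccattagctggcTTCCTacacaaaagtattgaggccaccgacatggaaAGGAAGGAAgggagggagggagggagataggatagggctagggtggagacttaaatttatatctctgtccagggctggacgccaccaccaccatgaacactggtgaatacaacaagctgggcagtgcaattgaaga
Mrc1, chr2:14229164-14229463, plus strand: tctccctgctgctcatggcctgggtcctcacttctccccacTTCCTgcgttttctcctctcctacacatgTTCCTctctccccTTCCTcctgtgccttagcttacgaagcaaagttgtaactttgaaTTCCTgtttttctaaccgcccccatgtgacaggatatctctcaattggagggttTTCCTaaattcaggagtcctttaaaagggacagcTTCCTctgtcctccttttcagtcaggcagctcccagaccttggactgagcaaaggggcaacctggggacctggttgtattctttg
Fcgr2b, chr1:170976022-170976321, minus strand: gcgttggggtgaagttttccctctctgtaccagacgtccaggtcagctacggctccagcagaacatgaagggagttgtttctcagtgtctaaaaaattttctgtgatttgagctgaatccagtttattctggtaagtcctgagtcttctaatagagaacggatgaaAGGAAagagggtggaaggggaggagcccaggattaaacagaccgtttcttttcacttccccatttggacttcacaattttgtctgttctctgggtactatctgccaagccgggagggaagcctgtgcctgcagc
Stab1, chr14:31168592-31168891, minus strand: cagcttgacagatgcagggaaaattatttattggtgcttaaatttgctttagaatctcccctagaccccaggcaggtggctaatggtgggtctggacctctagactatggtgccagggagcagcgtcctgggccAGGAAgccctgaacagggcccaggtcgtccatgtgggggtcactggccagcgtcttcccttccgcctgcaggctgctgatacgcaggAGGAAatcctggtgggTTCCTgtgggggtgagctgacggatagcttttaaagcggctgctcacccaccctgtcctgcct
Kdr, chr5:75978406-75978705, minus strand: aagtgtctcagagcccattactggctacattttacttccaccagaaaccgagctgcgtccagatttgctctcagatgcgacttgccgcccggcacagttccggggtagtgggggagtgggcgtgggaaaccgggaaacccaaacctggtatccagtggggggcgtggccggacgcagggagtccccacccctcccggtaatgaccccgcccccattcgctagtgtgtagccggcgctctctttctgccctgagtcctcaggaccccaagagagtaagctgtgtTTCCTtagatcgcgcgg
The letters AGGAA, searched on both strands, occurred in 16 of the 20 promoters, against 66.7% of the 32851 promoters of the table. AGATAA, a form of the motif of GATA factors, occurred in 1 of the 20 (that of Tek), against 11.2% of all promoters, and TATAAA in 2 of the 20, against 13.6%. A match of letters is a description of the sequence and not evidence of a bound factor.

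Among the sinusoidal genes, 7 of 12 were lower (58.3%, against 11.0% of all genes) and 0 were higher (against 11.5%). Their median change was -0.40. Clec4g encodes a C-type lectin of the sinusoidal surface (ENSMUSG00000074491, chr8:3707064-3720651, minus strand, GENCODE M21 on GRCm38). Its lowest, median and highest values were 1006, 1232 and 1705 in knockouts, against 1555, 1744 and 2234 in controls. In 7 of 8 knockouts it lay below every control, and the exception was knockout 5. The change was -0.54 (SE 0.13, adjusted p = 0.00649, limma). Mrc1, the mannose receptor of sinusoidal endothelium and macrophages (ENSMUSG00000026712, chr2:14229392-14332057), had a lowest, median and highest value of 569.7, 743 and 965 in knockouts, against 892, 986 and 1256 in controls. All knockouts but knockout 5 lay below every control, for a change of -0.43 (SE 0.12, adjusted p = 0.0210).

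Fcgr2b, the inhibitory Fc receptor that clears immune complexes in the sinusoid (ENSMUSG00000026656, chr1:170958617-170976547), had values of 508, 613 and 863 (lowest, median, highest) in knockouts, against 687, 849.6 and 1026 in controls. Knockouts 5 and 6 fell within the range of the controls and the other 6 lay below it, and the change was -0.42 (SE 0.12, adjusted p = 0.0242). Its sequence is close to that of Fcgr3, so how reads were divided between the pair is uncertain. Stab1 encodes stabilin-1, a scavenger receptor (ENSMUSG00000042286, chr14:31139013-31168641). Its values were 196, 240.2 and 299.7 in knockouts, against 267, 318 and 349.7 in controls. Each knockout lay below the control mean, but 3 of the 8 (knockouts 3, 5 and 6) reached the range of the controls. The change was -0.37 (SE 0.11, adjusted p = 0.0286). Whether counting used strand is not given in the sources used here, and 5 of the genes that were lower share exon bases with a gene on the opposite strand. These are Stab1 (112 bases with Nt5dc2), Gpr182 (74 with Zbtb39), Clec4g (146 with Gm16553), Fcgr2b (155 with Gm38204) and Sox17 (804 with Gm37587), and how reads were divided there is uncertain.

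Dnase1l3 encodes a secreted DNase that degrades chromatin in the circulation (ENSMUSG00000025279, chr14:7964533-7994573). Its values were 309.8, 356 and 582 in knockouts, against 465, 571 and 593 in controls, with knockouts 5 and 8 inside the range of the controls. The change was -0.49 (SE 0.14, adjusted p = 0.0208). Oit3, a secreted protein marking liver sinusoidal endothelium (ENSMUSG00000009654, chr10:59422958-59441778), had values of 195, 263 and 447 in knockouts, against 349.8, 404 and 477 in controls. Only knockout 5 overlapped the controls, and the change was -0.55 (SE 0.17, adjusted p = 0.0304). Gpr182, an atypical chemokine receptor of sinusoidal endothelium (ENSMUSG00000058396, chr10:127747276-127751732), had values of 459, 567 and 971 in knockouts, against 694, 836 and 919.9 in controls. Knockout 5 exceeded every control and knockout 8 overlapped them, while the other 6 were lower than all controls. The change was -0.47 (SE 0.15, adjusted p = 0.0330). No promoter was in the table for these 3 genes or for Sox17.

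The other 5 sinusoidal genes did not pass. Ehd3, an endocytic ATPase of sinusoidal endothelium, had values of 959, 1279 and 2159 in knockouts, against 1567, 1708 and 2066 in controls, with a change of -0.38 (adjusted p = 0.0799). In 6 of 8 knockouts it lay below every control, yet in knockout 5 it exceeded them all. The changes were -0.22 for Flt4 (the receptor of Vegfc), -0.20 for the scavenger receptor Stab2, -0.22 for the hyaluronan receptor Lyve1, and 0.03 for Gata4, the transcription factor that specifies sinusoidal endothelium. The SE of Lyve1 was 0.32, and 1 control library reached 301, against 140.04 for the next.

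Of the 16 general endothelial genes, 2 were lower (12.5%, near the 11.0% of all genes) and 0 were higher. Each of the 16 had a change below 0 under the deposited scaling, with a median of -0.32. At an unadjusted p under 0.05 (limma), 8 of the 16 were lower, as were 8 of the 12 sinusoidal genes, against 16.3% of all genes tested. Sox17, a transcription factor of arterial and vascular development (ENSMUSG00000025902, chr1:4490931-4497354), had values of 41.0, 46.9 and 56.3 in knockouts, against 54.7, 61.8 and 71.9 in controls. Only knockout 3 overlapped the controls. The change was -0.37 (SE 0.12, adjusted p = 0.0384). Kdr encodes VEGF receptor 2, the main signalling receptor for Vegfa (ENSMUSG00000062960, chr5:75932827-75978458). Its values were 683, 749 and 1182 in knockouts, against 937, 1028 and 1258 in controls, with knockouts 5 and 8 inside the range of the controls. The change was -0.36 (SE 0.13, adjusted p = 0.0499), just inside the threshold.

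Flt1, VEGF receptor 1, was just outside it at -0.34 (adjusted p = 0.0579). The other 13 general genes lay between -0.40 and -0.23. Of these, Ramp2 (a subunit of the adrenomedullin receptor), the sialomucin Emcn, the guidance receptor Robo4, the TGF-beta co-receptor Eng and the transcription factor Sox18 had changes of -0.40, -0.37, -0.37, -0.35 and -0.33. Egfl7, the host gene of miR-126, was at -0.31, the phosphatase gene Ptprb at -0.29, and the junction genes Esam, Cdh5 and Pecam1 at -0.27, -0.27 and -0.24. The angiopoietin receptor Tek was at -0.26, its relative Tie1 at -0.23, and Nos3, endothelial nitric oxide synthase, at -0.25. Ramp2 shares 1103 exon bases on its own strand with the more abundant Vps25, so its value is uncertain. The smallest adjusted p among these 13 was 0.0653, for Emcn, which lay below the control mean in each of the 8 knockouts.

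**Figure D2:**
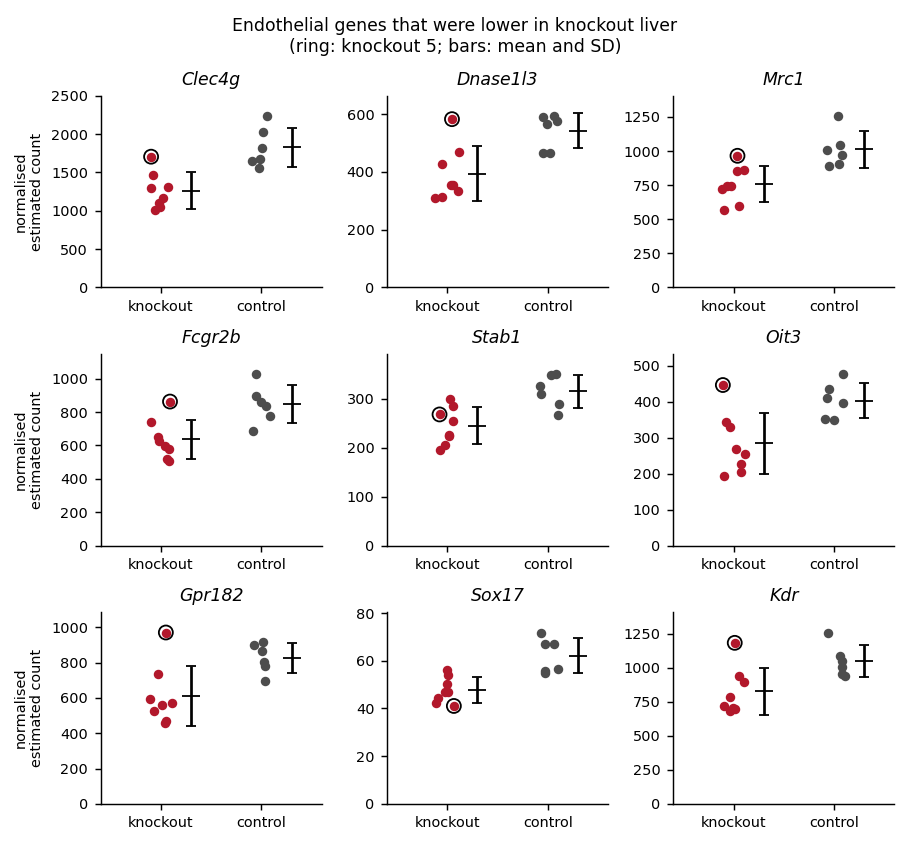
Normalised estimated counts (y axis, from 0) of the 9 endothelial genes that were lower, for 8 knockout and 6 control libraries, with mean and SD beside the points and a ring around knockout 5. In 7 of the 9 panels knockout 5 is the highest knockout, and in every panel at least 1 knockout reaches the range of the controls.

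The sinusoidal and the general genes were next set against each other. The median change was -0.40 over the 12 sinusoidal and -0.32 over the 16 general genes, a difference of -0.08. Taken in each library from the deviations from the control mean, the same difference averaged -0.087 in knockouts (SD 0.096, n = 8) and was below 0 in 7 of 8. In the controls it ran from -0.079 to 0.043 and was below 0 in 2 of 6. Knockouts 1, 5, 6, 7 and 8 lay inside that range of the controls. In knockout 6 the medians were nearly equal, at -0.235 for sinusoidal and -0.234 for general genes. The difference between the lists was not tested. Relative to the median of all genes tested, the medians were -0.45 for sinusoidal, -0.37 for general, -0.26 for large-vessel and -0.18 for angiocrine genes. Summed over the list, sinusoidal genes had a value of 6607 ± 1242 in knockouts and 8692 ± 749 in controls, and general genes had 6161 ± 1126 in knockouts and 7554 ± 705 in controls (SD, n = 8 and 6).

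The 4 angiocrine ligands gave 0 calls in either direction. Rspo3, a secreted amplifier of WNT signals, had the smallest p of the 4. Its lowest, median and highest values were 150.3, 197 and 276 in knockouts, against 192, 224 and 228 in controls, and the knockouts lay on both sides of the controls. The change was -0.13 (SE 0.13, adjusted p = 0.505). Wnt9b was at -0.19, Bmp2 at -0.12 and Wnt2 at 0.00, each with knockouts spanning much of the range of the controls. The SE was 0.13 to 0.22 over the 4 ligands.

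None of the 3 large-vessel genes passed. Cd34, a sialomucin of capillaries and large vessels that normal sinusoids largely lack, had values of 87.9, 139 and 195 in knockouts, against 87.3, 100.5 and 133 in controls. The groups overlapped, with 6 of 8 knockouts above the control mean, and the change was 0.39 (SE 0.18, adjusted p = 0.133). Vwf, the clotting factor carrier stored by large-vessel endothelium, was at -0.24, and Plvap, the diaphragm protein of continuous and fenestrated vessels, at -0.21.

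Levels can be compared between genes only per length of exon. Per kilobase, the highest values were those of Plvap (515 in knockouts, 581 in controls), Clec4g (513 in knockouts, 741 in controls), Eng (281 in knockouts, 352 in controls) and Ehd3 (209 in knockouts, 265 in controls). The lowest were those of Sox17 (10.01 in knockouts, 13.02 in controls), Flt1 (10.1 in knockouts, 12.6 in controls) and Vwf (10.9 in knockouts, 12.8 in controls). The defining sinusoidal genes were present in each library of both groups.

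Ratios between related genes do not depend on the scaling of a library, and 7 pairs were compared by an exact permutation test, two-sided, over the 3003 ways of assigning libraries to groups. None passed. The smallest p was for Stab1 over Stab2, with a mean log2 ratio of 0.47 in knockouts and 0.64 in controls, a difference of -0.17 (exact p = 0.0729, adjusted over the 7 pairs 0.490). Flt4 over Kdr differed by 0.14 (exact p = 0.140), Flt4 over Flt1 by 0.12, Wnt2 over Wnt9b by 0.19, Kdr over Flt1 by -0.02, Tek over Tie1 by -0.04 and Sox17 over Sox18 by -0.05. The SD of a ratio between libraries was 0.16 to 0.38 among knockouts and 0.14 to 0.57 among controls.

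Knockout 5 stood out among the knockouts. It was the highest knockout for 20 of the 35 endothelial genes, for 9 of the 12 sinusoidal and 9 of the 16 general genes. How often it was the highest knockout over all genes tested was not counted. Its median deviation from the control mean was 0.08 (log2) over the sinusoidal and 0.04 over the general genes. In the other 7 knockouts that deviation was -0.67 to -0.23 over the sinusoidal and -0.56 to -0.17 over the general genes. Knockout 5 also had the fewest estimated reads of all libraries, and its Kupffer cell genes lay 0.57 above the control mean. Neither trait was particular to it. In knockout 3 the Kupffer cell genes lay 0.87 above, with medians of -0.43 over the sinusoidal and -0.28 over the general genes. Knockouts 7 and 8 had 11.5 M and 12.4 M reads, with medians of -0.48 and -0.23 over the sinusoidal genes. The part of depth and of Kupffer cells in the endothelial values of knockout 5 was not tested. Without knockout 5, 13 of the 35 were lower, against 11.9% of all genes: 8 of the 9 genes above, without Sox17 (adjusted p = 0.0577), and in addition Ehd3, Ptprb, Robo4, Eng and Cdh5, at -0.48, -0.35, -0.48, -0.47 and -0.36.

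**Figure D3:**
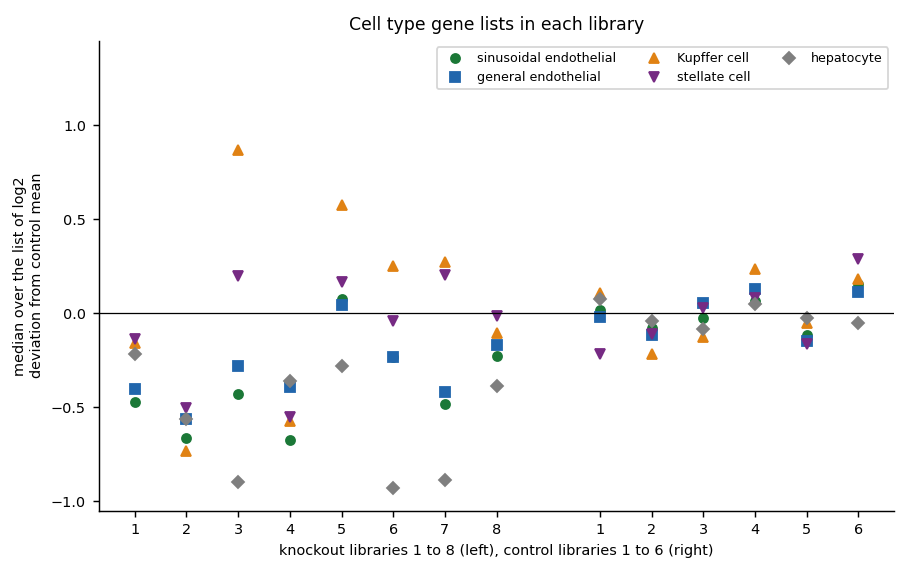
Median over each cell type list of the log2 deviation from the control mean (y axis) in knockout libraries 1 to 8 and control libraries 1 to 6 (x axis). Sinusoidal and general endothelial genes lie below 0 in 7 of 8 knockouts and above it in knockout 5, while Kupffer cell genes lie between -0.73 and 0.87 in knockouts.

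Several calls rested on single libraries. Clec4g and Dnase1l3 were lower with any 1 of the 14 libraries left out. Mrc1 missed the threshold without control 6 (adjusted p = 0.0525), and Fcgr2b without control 4 or 6 (0.0537 and 0.0598). Stab1 missed it without knockout 2 or control 3, 4 or 6 (0.0508 to 0.0667), and Oit3 without knockout 3, 4 or 7 or control 1, 2, 4 or 6 (0.0507 to 0.0682). Sox17 missed it without knockout 2, 4, 5, 6 or 7 or control 1, 2 or 3 (0.0541 to 0.0903). Gpr182 kept its call only without knockout 5, 6 or 8 or control 2 (adjusted p of up to 0.0695 otherwise), and Kdr only without knockout 5 or 8 (up to 0.113 otherwise). The number of genes lower was 5 without knockout 2, 4 or 7 or control 1 or 3, 4 without control 4, and 3 without control 6, where 8.66% to 10.7% of all genes were lower. Without knockouts 3, 6 and 7 it was 4, namely Clec4g, Mrc1, Fcgr2b and Stab1, at -0.47, -0.47, -0.45 and -0.49, near the share of all genes lower in that fit (9.24%).

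The calls depended on the scaling of the libraries. The deposited values summed to 19.1 M in knockouts (SD 1.37 M, n = 8) and 24.1 M in controls (SD 2.43 M, n = 6). When each library was instead scaled so that its sum without ribosomal RNA was equal, the change of the median gene moved by 0.33, to 0.38, and 90.1% of calls were higher, against 51.1% under the deposited scaling. Then 0 of the 35 endothelial genes were lower, where 3.66% of all genes were, and 2 were higher, where 33.3% of all genes were. These were Cd34, at 0.73 (adjusted p = 0.0125), and Gata4, at 0.37 (adjusted p = 0.0343), which is about the median of all genes. The median over the 35 was 0.05, again below that of all genes. The median of the sinusoidal genes stayed below 0, at -0.06, while those of the general, angiocrine and large-vessel genes turned to 0.02, 0.21 and 0.13. Quantile normalization gave 10 lower, 7 of them among the 9, where 10.3% of all genes were lower.

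**Figure D4:**
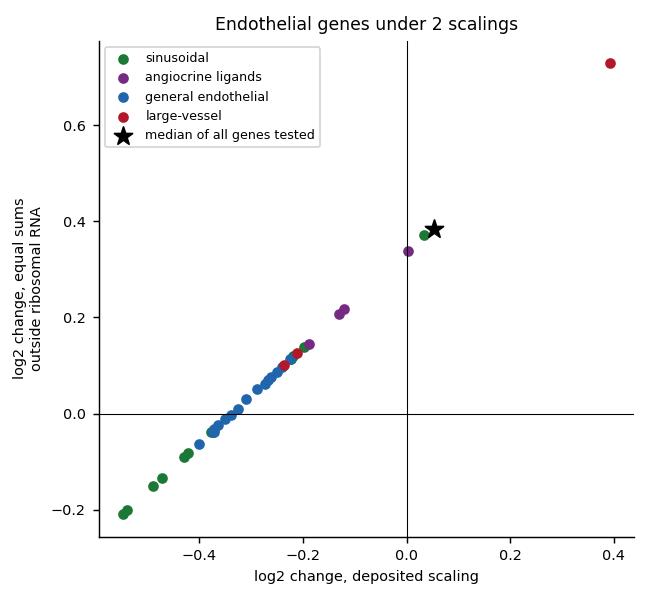
Log2 change of the 35 endothelial genes with the deposited scaling (x axis) and with sums without ribosomal RNA made equal (y axis), with a star at the median of all genes tested (0.05 and 0.38). All points but that of Cd34 lie below the star on both axes, and the number of points below 0 is smaller on the y axis.

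In the 8 Y-positive libraries alone, 14 of the 35 were lower, against 8.3% of all genes tested. In the 6 Xist-high libraries alone, with 4 knockouts and 2 controls, 0 were lower by limma, against 0.2% of all genes. The median change over the 35 was -0.45 in the Y-positive and -0.20 in the Xist-high libraries. The difference between the classes, tested as an interaction, was called for 0 of the 35 genes, with a smallest adjusted p of 0.824, and for 0.0552% of all genes. In the authors' deposited table, 7 of the 35 had a q of at most 0.05, against 17.1% of its 27865 genes with a q. All 7 were among the 9, and the other 2 were Stab1 (q = 0.0572) and Sox17 (q = 0.242).

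Other cells of the sinusoid were measured beside the endothelium, since Mrc1, Fcgr2b and Stab1 are also made by macrophages. None of 11 Kupffer cell genes passed in either direction, and their median change was 0.05. Their summed value ran from 7086 to 18886 in knockouts and from 10276 to 13394 in controls. Clec4f, the defining Kupffer cell lectin, had values of 2323 to 5225 in knockouts, against 3227 to 4674 in controls, and Cd68, the gene with the smallest p, had a change of 0.52 (adjusted p = 0.232). Of 9 hepatocyte genes 5 were lower (55.6%, against 11.0% of all genes), among them Serpina1c, Alb and Cps1 at -1.32, -1.07 and -0.79, and 0 were higher. Without knockouts 3, 6 and 7 Serpina1c was at -0.72 (adjusted p = 0.0497). With equal sums Cps1 was at -0.45, and 3 hepatocyte genes were lower and 1 was higher. Of all genes, 3.66% were lower and 33.3% higher under that scaling. The summed hepatocyte value was 542365 to 959932 in knockouts, against 968691 to 1160590 in controls. The part of these cells in the endothelial changes was not tested.

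A further 22 endothelial genes outside the 35 gave 3 lower (13.6%, near the 11.0% of all genes) and 0 higher, with a median change of -0.18. Clec14a, an endothelial lectin-like receptor, had a change of -0.50 (adjusted p = 0.0243), the ETS factor Erg -0.48 (adjusted p = 0.0302) and the tight junction gene Cldn5 -0.56 (adjusted p = 0.0466). All 3 lost their calls with equal sums and without knockouts 3, 6 and 7, at adjusted p of 0.105 to 0.176 in the last case. With 1 library left out, Clec14a missed the threshold without control 4 or 6, Erg without knockout 4 or control 1, 4 or 5, and Cldn5 in every case but those without knockout 5 or control 2 (adjusted p of 0.0513 to 0.116).

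The ligands that act on the endothelium were then examined. Of 7 genes for VEGF ligands and neuropilins, 1 was lower (14.3%, near the 11.0% of all genes) and 0 were higher. Vegfa, the hepatocyte-made growth factor for sinusoids, had values of 1028, 1183 and 1537 (lowest, median, highest) in knockouts, against 1826, 2109 and 2527 in controls. The groups did not overlap. The change was -0.80 (SE 0.12, adjusted p = 0.000274), and -0.46 with equal sums (adjusted p = 0.00287). Of 4 angiopoietin and angiopoietin-like genes tested none passed, and Angptl4, an inhibitor of lipoprotein lipase, had the smallest p, with a change of -0.76 (adjusted p = 0.0525). Of 3 genes of the adrenomedullin system, which signals through Ramp2, none passed, and Adm was at -0.31.

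Genes for the receptors and targets of the angiocrine ligands were examined next. Whole-liver RNA does not show in which cells these genes changed. Of 10 WNT receptors and regulators, 2 were higher, Znrf3 (a ubiquitin ligase that removes WNT receptors) at 0.62 and Lrp5 (a WNT co-receptor) at 0.46, and 1 was lower, the receptor Fzd7 at -0.62. Of 12 pericentral or other WNT target genes, 4 were lower (33.3%, against 11.0% of all genes). In the other direction 1 was higher (8.33%, against 11.5% of all genes). Changes over the 12 ran from -1.09 to 0.83. The 3 with the largest change were Notum, a secreted WNT inhibitor, at -1.09, Glul, glutamine synthetase, at -0.94, and the cytochrome P450 gene Cyp1a2 at -0.84 (adjusted p = 0.00873, 0.00800 and 0.0125). Without knockouts 3, 6 and 7, Notum and Glul kept their calls at -0.70 and -0.56, while Cyp1a2 and Fzd7 did not (adjusted p = 0.0565 and 0.0798). With equal sums Fzd7 and Cyp1a2 lost theirs (adjusted p = 0.142 and 0.0626), and Glul was at -0.60. Under that scaling, where 33.3% of all genes were higher, 5 of the 10 WNT receptors and regulators were higher and 0 were lower, with Znrf3 at 0.95 and Lrp5 at 0.80, and of the 12 target genes 2 were higher and 2 were lower.

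Of 9 genes for BMP ligands, receptors and SMAD proteins 1 was higher, the receptor Bmpr1a at 0.52 (adjusted p = 0.00164), a share near the 11.5% of all genes. With equal sums 4 of the 9 were higher, where 33.3% of all genes were, with Bmpr1a at 0.86. Of 7 BMP target genes 2 were higher (28.6%, against 11.5% of all genes) and 0 were lower. Atoh8, a transcription factor, had a change of 1.06 (adjusted p = 0.00214), and Smad7, the inhibitory SMAD, 0.73 (adjusted p = 0.00105). Hamp, which encodes hepcidin, did not pass, at -0.73 (adjusted p = 0.0733).

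**Figure D5:**
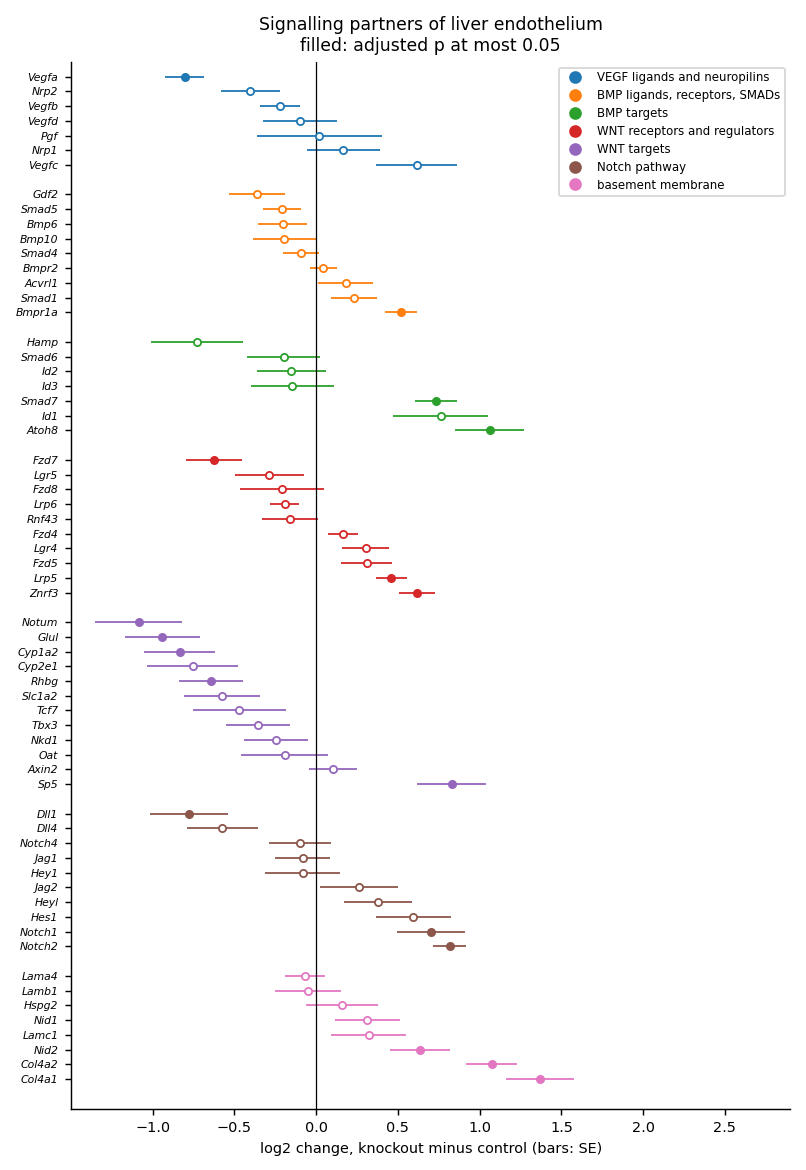
Log2 change (x axis, knockout minus control, bars are SE) of genes for VEGF, BMP, WNT and Notch signalling and of the basement membrane, with filled points where the adjusted p was at most 0.05. Vegfa, Notum and Glul lie at -0.80, -1.09 and -0.94, and Col4a1 and Col4a2 at 1.37 and 1.07, all beyond the -0.55 to 0.39 spanned by the 35 endothelial genes.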

How the data were processed

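Total RNA of 8 knockout and 6 control livers was sequenced with a stranded total RNA kit, per the labels' protocols. The submitters' processing notes name kallisto, sleuth and mm10; versions and the strand setting are not given in the sources used here. The table that the authors deposited had 75859 lines for 54446 genes, since lines are repeated for genes with several biotypes. Its signal values per library, as the authors deposited them, are estimated counts over a size factor, which was read from the numbers. From 23.6% to 28.9% of low values per library were whole multiples of 1 read (within 0.02 of a read, under 200 reads), so no count test was run. The depth of a library was its sum divided by the worth of 1 read. The authors also deposited a p-value and a q-value per gene, and the q-value was used as an alternative.

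The design named this log-scale test for values that are not counts. Values were fitted with limma 3.58.1 in R 4.3.3 (trended prior variance) on log2(value + 1), which understates the change of low genes. Genes needed at least 10 in at least 6 libraries, p-values were adjusted by Benjamini-Hochberg over 23554 genes, and 0.05 was the threshold. The fit was tested on simulated data. Low values in the shallower libraries were the least precise. The labels do not state that the replicates came from separate litters or days, so p-values measure the spread between these libraries. Fits on part of the libraries used the same genes. Exact permutation tests, lists and figures used Python 3.11.15, numpy 2.4.6, pandas 2.3.3 and matplotlib 3.10.9. Promoter sequences are from RefSeq (GRCm38.p6), positions and exon lengths from GENCODE M21.

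The 35 genes, the 16 other lists and the tests were chosen with earlier results of these data known. All 35 genes are named, with values for those called and for the gene of smallest p in a subset with no call. Of the other lists, the called genes are named, at most the 3 with the largest change, or else the gene of smallest p. Angpt4, Ramp3 and Cd3d did not pass the filter, and Tf was not used here. A further gene of these lists is not reported here. Alternatives were pseudocounts of 0.1 and 0.5, no filter, genes above the median, precision weights, other scalings, covariates, subsets of libraries, each library left out, a replicate block, a threshold of 0.01 and the authors' q.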

Additional observations from a re-analysis of the deposited data

Results flagged for a closer look

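In 136 groups of 6 or 8 libraries, 10 held a highest or lowest library whose gap to the next was a large share of the range of its group. Chance gives this in about 1 in 20 groups. Knockout 5 was such a highest knockout for Egfl7 (502.6, next 415.03, gap 0.555 of the range), Robo4 (353, next 237, gap 0.582), Eng (1995, next 1274, gap 0.634) and Cldn5 (161, next 110, gap 0.656). Control 4 was such a highest control for Lyve1 (301, next 140.04, gap 0.668), Sox18 (170.3, next 113, gap 0.645) and Cdh5 (631, next 514, gap 0.692). Nos3 was highest in knockout 3 (168, next 113, gap 0.687), and Atoh8 in knockout 7 (1397, next 858, gap 0.554). Rspo3 was lowest in control 2 (192, next 218, gap 0.719).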

How the results depend on the processing

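The finding of 9 endothelial genes lower and 0 higher moved with several choices. The number lower was 0 with equal sums, with 2 higher, 14 with Y-positive libraries alone, 0 with Xist-high libraries alone, 4 without knockouts 3, 6 and 7, 1 at a threshold of 0.01, and 3 to 13 with 1 library left out. The replicate block gave 4 lower, 0 of them general genes, where 8.14% of all genes were lower, against 11.0% in the main fit. Under the other alternatives it ran from 6 without a filter, where 4.04% of all genes were lower, to 11 with the Xist class as a covariate, where 11.4% were. The share of all genes lower at the threshold of 0.01 is not given here. The replicate number was not taken to pair the samples: same-numbered libraries correlated at over 0.1 for 5 of 6 numbers (0.14 to 0.23, and 0.071 for number 3), the numbers follow the Xist class in both groups, and 2 of 6 controls correlated best with their own number. The sinusoidal minus general median log2 change stayed below 0 in every alternative run (-0.15 to -0.044), and the interaction with the Xist class was called for 0 of the 35 genes in each alternative where it was fitted (pseudocounts, filters, precision weights, scalings, without knockouts 3, 6 and 7, and with 1 library left out).

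Signs turned in uncalled genes. With equal sums, changes became 0.12 for Flt4, 0.14 for Stab2, 0.11 for Lyve1, 0.21 for Rspo3, 0.15 for Wnt9b, 0.22 for Bmp2, 0.051 for Ptprb, 0.029 for Egfl7, 0.062 for Esam, 0.10 for Pecam1, 0.0097 for Sox18, 0.076 for Tek, 0.071 for Cdh5, 0.11 for Tie1, 0.086 for Nos3, 0.10 for Vwf, 0.13 for Plvap and 0.017 for Adm. In Xist-high libraries alone they became 0.028 for Flt4, 0.052 for Stab2, 0.46 for Lyve1, 0.052 for Rspo3, 0.12 for Wnt9b, 0.13 for Bmp2, 0.022 for Esam and -0.20 for Epb42, and the log2 ratios 0.017 for Kdr over Flt1 and 0.085 for Sox17 over Sox18. In Y-positive libraries alone Wnt2 was at -0.14, Flt4 over Flt1 at -0.066 and Tek over Tie1 at 0.034. Quantile normalization gave -0.020 for Gata4 and -0.11 for Wnt2. Wnt2 was also at -0.021 with the Xist class and -0.052 with log2 estimated reads as a covariate, -0.18 without knockouts 3, 6 and 7, where the log2 ratio of Flt4/Flt1 was -0.0078, and -0.010 with the replicate block. With 1 library left out, the ranges that crossed 0 were -0.087 to 0.034 for Kdr over Flt1, -0.20 to 0.059 for Sox17 over Sox18, -0.13 to 0.033 for Tek over Tie1, -0.42 to 0.041 for Lyve1, -0.055 to 0.14 for Gata4 and -0.16 to 0.12 for Wnt2. Causes other than the scaling itself were not tested. With 4 against 2 libraries, the Xist-high class could not reach an exact p under 0.0667 for a ratio. Its libraries were also the shallower, and the part of depth in its calls was not tested.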

Other observations

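Basement membrane genes and the Notch pathway, both studied in capillaries that take the place of sinusoids, held some of the larger changes among the other lists. In which cells of the liver these changes lay was not tested. Of 8 basement membrane genes 3 were higher in knockouts and 0 were lower, where 11.5% of all genes were higher. Col4a1, a collagen IV chain, had values of 358, 497 and 991 (lowest, median, highest) in knockouts, against 169, 216 and 266 in controls, without overlap, for a change of 1.37 (SE 0.21, adjusted p = 0.000334, limma). Its partner Col4a2 was at 1.07 and the linker gene Nid2 at 0.63, and Nid2 missed the threshold without control 2 or 6 (adjusted p = 0.0507 in both cases). Without knockouts 3, 6 and 7 Col4a1, Col4a2 and Nid2 kept their calls, at 1.02, 0.89 and 0.80. The median change of the 8 genes then fell from 0.32 to 0.016. Of 10 Notch genes 2 were higher, the receptors Notch2 at 0.82 and Notch1 at 0.70, and 1 was lower, the ligand Dll1 at -0.78. Without knockouts 3, 6 and 7 Notch1 did not pass (adjusted p = 0.117), and without control 6 neither Notch1 nor Dll1 did (adjusted p = 0.0586 and 0.0668). Dll1 also missed it without control 2, 4 or 5 (adjusted p = 0.0533 to 0.0633) and with equal sums (adjusted p = 0.186). With equal sums 4 basement membrane genes were higher, Nid2 at 0.97, as were 4 Notch genes, and 0 of either list were lower. Of all genes, 33.3% were higher under that scaling.

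Other cell types of the liver were measured in the same way. Of 7 bile duct genes 3 were higher (42.9%, against 11.5% of all genes) and 0 were lower. The 3 were Sox9 at 1.70, Epcam at 1.31 and Spp1 at 1.17 (adjusted p = 0.000304, 0.0422 and 0.0101). Without knockouts 3, 6 and 7 Spp1 was at 0.66 (adjusted p = 0.0212). Epcam did not pass once knockouts 3, 6 and 7 were left out (adjusted p = 0.186), nor without knockout 3, 6, 7 or 8 or control 1, 2, 4 or 5 (0.0509 to 0.1002). Of 12 stellate cell genes 2 were lower (16.7%, against 11.0% of all genes), Ecm1 at -0.51 and Colec11 at -0.49, and 0 were higher. Both lost their calls with equal sums and without knockouts 3, 6 and 7 (adjusted p of 0.115 to 0.463). With 1 library left out, Ecm1 missed the threshold without knockout 3, 4, 6 or 7 or control 2, 3, 4 or 6, and Colec11 without knockout 4, 6 or 7 or control 4 or 6 (adjusted p of 0.0521 to 0.0913). None of 7 lymphocyte and 6 erythroid genes passed, with Cd79b at -0.62 (adjusted p = 0.107) and Epb42 at 0.35 as those of smallest p.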
